A study of Homo sapiens with 6 samples.

Results

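The 10 genes described here read out or carry signalling from cytokine receptors through JAK kinases to STAT factors: SOCS1, SOCS2, SOCS3 and CISH, PIM1, PIM2 and PIM3, and STAT3, STAT5A and STAT5B. They were taken by symbol, and all 10 were found among the 34114 genes of the table. All 10 also passed a filter on low values, a mean normalized read count of 10 or more over the 6 libraries, which left 19575 genes for testing. The data are messenger RNA profiles of 3 established cell lines derived from acute myeloid leukemia, MOLM-14, NOMO-1 and SKM-1. Each line had received a short hairpin RNA (shRNA) against NCAM1, a cell surface adhesion protein also called CD56, or a scrambled control shRNA, and RNA was taken at 72 h. The NCAM1_knockdown group and the control_shRNA group held 3 libraries each, 1 from each line. MOLM-14 is known to carry an internal tandem duplication in the receptor kinase FLT3, and it carries it in both of its libraries. Differences between MOLM-14 and the other lines therefore cannot be told apart from any other difference between 1 line and 2 others. The sources used here give neither the hairpin sequences nor the number of cultures behind a library. A line gave 1 library per condition, so p-values rest on how far the difference between knockdown and control varied between lines. This holds for the comparisons between lines as well. They hold no spread between replicates of 1 line, and the spread they do use may in part be technical.

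As background, a cytokine receptor that binds its ligand brings JAK kinases together, and these phosphorylate STAT factors, which enter the nucleus and switch on target genes. SOCS1, SOCS2, SOCS3 and CISH are among those targets, and the proteins they encode dampen the receptor that induced them, so they form a negative feedback loop. PIM1, PIM2 and PIM3 encode serine/threonine kinases that favour survival and growth of blood cells and have no known regulatory domain, so their activity follows their amount. FLT3 with an internal tandem duplication signals without ligand and is known to activate STAT5 strongly, which the unmutated receptor does only weakly.

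Gene-assigned reads numbered 41916991 to 47688779 per library. Values are normalized read counts, which are reads divided by 1 size factor per library, and 1 read is worth about 1. NCAM1, the target of the hairpin, had 1896 in the knockdown and 6004 in the control library of MOLM-14. It had 312 and 1163 in NOMO-1, and 101 and 12537 in SKM-1, so in every line its knockdown library was the lower, and by far the most in SKM-1. The SKM-1 pair also stood apart over all genes, with 3892 of 13510 genes at least 2-fold apart between its libraries, against 272 of 12614 in MOLM-14 and 1024 of 13278 in NOMO-1. Those counts cover genes with 100 or more normalized reads in 1 library of the pair. The 9 myeloid markers summed to 17166 to 49447 in the knockdown and 19872 to 746357 in the control libraries. Most of that range was MPO, the granule peroxidase of myeloid precursors, with 6166 in the knockdown and 728824 in the control library of SKM-1. Some genes of the list went the other way in that line. ITGAM, the integrin CD11b, had 20862 in the knockdown and 1757 in the control library, and LYZ, lysozyme, 7205 and 2455. SPI1, a myeloid transcription factor, had 9577 and 5970, and CSF1R 2069 and 1367. CD33 (1764 and 3136), FCGR1A (1667 and 2673) and CEBPA (126.7 and 172.7) were, like MPO, lower in the knockdown library. The myeloid genes CD33 and SPI1 were expressed in all 6 libraries, at 1764 or more and 4791 or more, while the monocyte marker CD14 stayed at 27.4 or less. Summed markers of T and NK cells ranged over 771.2 to 4007 in the knockdown and 1298 to 5228 in the control libraries. B cell markers summed to 101.9 to 2164 and 439.2 to 1290, and erythroid markers to 0.912 to 2.75 and 0 to 6.10. Megakaryocyte markers summed to 33.1 to 257.3 and 49.8 to 551.6. Epithelial and stromal markers summed to 33.8 to 1300 and 37.9 to 604.6, and were highest in SKM-1, where EPCAM had 1203 in the knockdown and 548.7 in the control library. Changes in these markers are given here as values, and their part in the results that follow was not tested.

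SOCS2 differed most between the lines. It encodes a SOCS protein known as a target of STAT5 and as a brake on growth hormone signalling. In MOLM-14 it had 15970 in the knockdown and 13694 in the control library. In NOMO-1 it had 6321 and 4503, and in SKM-1 68.9 and 16.3, which are 75 and 16 reads. Both MOLM-14 libraries lay above both NOMO-1 libraries, and these lay far above both SKM-1 libraries. Per kilobase of annotated exon, SOCS2 was the highest of the 10 genes in both MOLM-14 libraries, at 2357 in the knockdown and 2021 in the control. In SKM-1 it was next to last, at 10.2 and 2.40 per kilobase.

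The difference between MOLM-14 and the mean of NOMO-1 and SKM-1 was tested with limma on log2(normalized count + 1), a scale that understates the change of low genes. A gene was called at a Benjamini-Hochberg adjusted p under 0.05 and at least a 2-fold difference. SOCS2 was higher in MOLM-14 by 5.10 (log2, SE 0.42, limma adjusted p = 0.00569), a 34.4-fold difference. That fold is against the averaged log levels of both other lines, which the low SKM-1 counts pull down. It is not the gap to NOMO-1, which was far smaller. The mean normalized count was 14832 for MOLM-14 and 5412 for NOMO-1, against 42.6 for SKM-1. NOMO-1 also exceeded SKM-1, by 7.26 (SE 0.49, limma adjusted p = 0.00319), so SOCS2 was high in 2 of the 3 lines. Leaving out either NOMO-1 library ended the call in both contrasts, with adjusted p-values of 0.0797 and 0.0823 for MOLM-14 and of 0.0804 and 0.0879 for NOMO-1 against SKM-1. No gene of the whole table was called in either contrast without a NOMO-1 library.

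SOCS1, whose protein binds and blocks JAK kinases directly, was low in all 6 libraries and lowest in SKM-1. It had 230.7 in the knockdown and 263.2 in the control library of MOLM-14, 30.1 and 117.1 in NOMO-1, and 9.18 and 4.06 in SKM-1. The SKM-1 values stand for 10 and 4 reads. The lines did not overlap, with MOLM-14 above NOMO-1 and NOMO-1 above SKM-1. SOCS1 was higher in MOLM-14 by 3.57 (log2, SE 0.67, limma adjusted p = 0.0324). The difference between NOMO-1 and SKM-1, 3.08 (SE 0.78), had a limma adjusted p of 0.0669.

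CISH, the first described gene of the SOCS family and a direct STAT5 target, was also higher in MOLM-14. It had 2166 in the knockdown and 3292 in the control library of MOLM-14, 456.2 and 749.0 in NOMO-1, and 606.9 and 315.0 in SKM-1. Both MOLM-14 libraries lay above the 4 others, while NOMO-1 and SKM-1 overlapped. The MOLM-14 difference was 2.40 (log2, SE 0.42, limma adjusted p = 0.0268), and that between NOMO-1 and SKM-1 was 0.42 (SE 0.48, limma adjusted p = 0.612). With either MOLM-14 library or either NOMO-1 library left out, SOCS1 and CISH were no longer called higher in MOLM-14. Their adjusted p-values then lay between 0.0933 and 0.222 for SOCS1 and between 0.119 and 0.191 for CISH. With no filter on low genes the adjusted p was 0.0630 for SOCS1 and 0.0547 for CISH.

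SOCS3, an inhibitor of receptors that signal through gp130 and a classic STAT3 target, followed the same order at a lower level. It had 256.8 in the knockdown and 390.3 in the control library of MOLM-14, 60.2 and 119.0 in NOMO-1, and 113.8 and 32.5 in SKM-1. Both MOLM-14 libraries lay above the 4 others, and the lines NOMO-1 and SKM-1 overlapped. The MOLM-14 difference, 2.12 (log2, SE 0.65), did not pass the limma test (adjusted p = 0.0934). DESeq2 on the recovered reads called it, with an adjusted p of 0.0296. So did limma without the knockdown library of SKM-1 (2.76, adjusted p = 0.00832) or without its control library (1.48, adjusted p = 0.0206).

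The STAT recognition element is a palindrome of the form TTCNNNGAA, and CISH is known for a cluster of them in its promoter. Promoter windows of 250 bases before to 50 after each RefSeq start site (assembly GRCh38.p14) were found for 9 of the 10 genes, 12 windows in all; SOCS2 had no entry. Among these 9 genes CISH alone had a match to TTCNNNGAA, and it had 4, starting 241, 230, 129 and 112 bases before the start site. Of all 35116 promoter windows, 7.66% held at least 1 match on either strand and 0.0199%, or 7 windows of 6 genes, held 4 or more. The form with 1 more base between TTC and GAA was found once, in a STAT5A window, and in 6.44% of all windows. The sequences of CISH and SOCS3 are shown because CISH was the gene whose level ran most like that of SOCS3 over the 6 libraries, and the 4 matches are in capitals. Both are on the minus strand, from chr3:50611832-50612024 for CISH and from chr17:78360926-78361175 for the farther upstream of the SOCS3 start sites, and bases within annotated exons are left out. A match describes these letters only, and the build differs from the hg19 named for the reads. Bases outside the windows were not searched, so a gene without a match here may hold sites elsewhere.
CISH: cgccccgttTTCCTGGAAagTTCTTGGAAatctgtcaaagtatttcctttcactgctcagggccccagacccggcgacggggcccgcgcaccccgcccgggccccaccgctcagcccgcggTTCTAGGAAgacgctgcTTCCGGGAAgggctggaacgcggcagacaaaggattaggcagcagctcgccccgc
SOCS3: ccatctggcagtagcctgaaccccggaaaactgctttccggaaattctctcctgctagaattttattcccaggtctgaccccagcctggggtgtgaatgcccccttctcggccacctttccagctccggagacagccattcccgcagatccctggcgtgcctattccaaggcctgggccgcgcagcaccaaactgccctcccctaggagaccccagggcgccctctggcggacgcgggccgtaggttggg

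PIM1, the kinase of the family most often described as a STAT5 target, had 2016 in the knockdown and 4554 in the control library of MOLM-14. It had 2127 and 1146 in NOMO-1, and 1101 and 280.4 in SKM-1. The control library of MOLM-14 was the highest, but its knockdown library lay below that of NOMO-1, so the lines overlapped. The MOLM-14 difference of 1.70 (log2, SE 0.66) had a limma adjusted p of 0.146. DESeq2 called it, with 1.88 and an adjusted p of 0.0213. The difference was 3.003 without the knockdown library of MOLM-14 (limma adjusted p = 0.0638) and 0.398 without its control library (0.761), so it depends on which of the 2 libraries stands for the line. Without the knockdown library of SKM-1 limma called it (2.23, adjusted p = 0.0446).

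PIM2, a kinase whose activity follows its transcription, had 1118 in the knockdown and 1266 in the control library of MOLM-14, 741.7 and 1525 in NOMO-1, and 690.4 and 1915 in SKM-1. PIM3 had 1926 and 2519 in MOLM-14, 1943 and 2130 in NOMO-1, and 2754 and 1638 in SKM-1. Lines overlapped for both genes. The MOLM-14 difference was 0.10 (log2, SE 0.32, limma adjusted p = 0.846) for PIM2 and 0.08 (SE 0.29, limma adjusted p = 0.865) for PIM3. With total-count scaling the PIM3 difference was -0.02, while the median of all genes lay at -0.11.

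None of the 3 STAT genes was called higher or lower in MOLM-14. STAT3 had 7144 in the knockdown and 7423 in the control library of MOLM-14, 2957 and 4758 in NOMO-1, and 8466 and 7000 in SKM-1. STAT5A had 2159 and 1871 in MOLM-14, 515.5 and 1086 in NOMO-1, and 2489 and 3516 in SKM-1. STAT5B had 4689 and 5066 in MOLM-14, 5403 and 9117 in NOMO-1, and 6369 and 5740 in SKM-1. NOMO-1 was thus the lowest line for STAT3 and STAT5A, whereas for STAT5B MOLM-14 lay below the 4 other libraries. The MOLM-14 differences were 0.44 (log2, SE 0.25, limma adjusted p = 0.283) for STAT3, 0.43 (SE 0.31, limma adjusted p = 0.385) for STAT5A and -0.42 (SE 0.24, limma adjusted p = 0.291) for STAT5B. STAT5A was lower in NOMO-1 than in SKM-1 by 1.98 on the log2 scale, that is -1.98 (SE 0.36, limma adjusted p = 0.0301). STAT3 was -1.04 (SE 0.29, limma adjusted p = 0.0830) in the same contrast. The STAT5A call was lost in limma without a variance trend (adjusted p = 0.0578), with no filter (0.0555) and without any 1 library of NOMO-1 or SKM-1 (adjusted p up to 0.249).

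**Figure D1:**
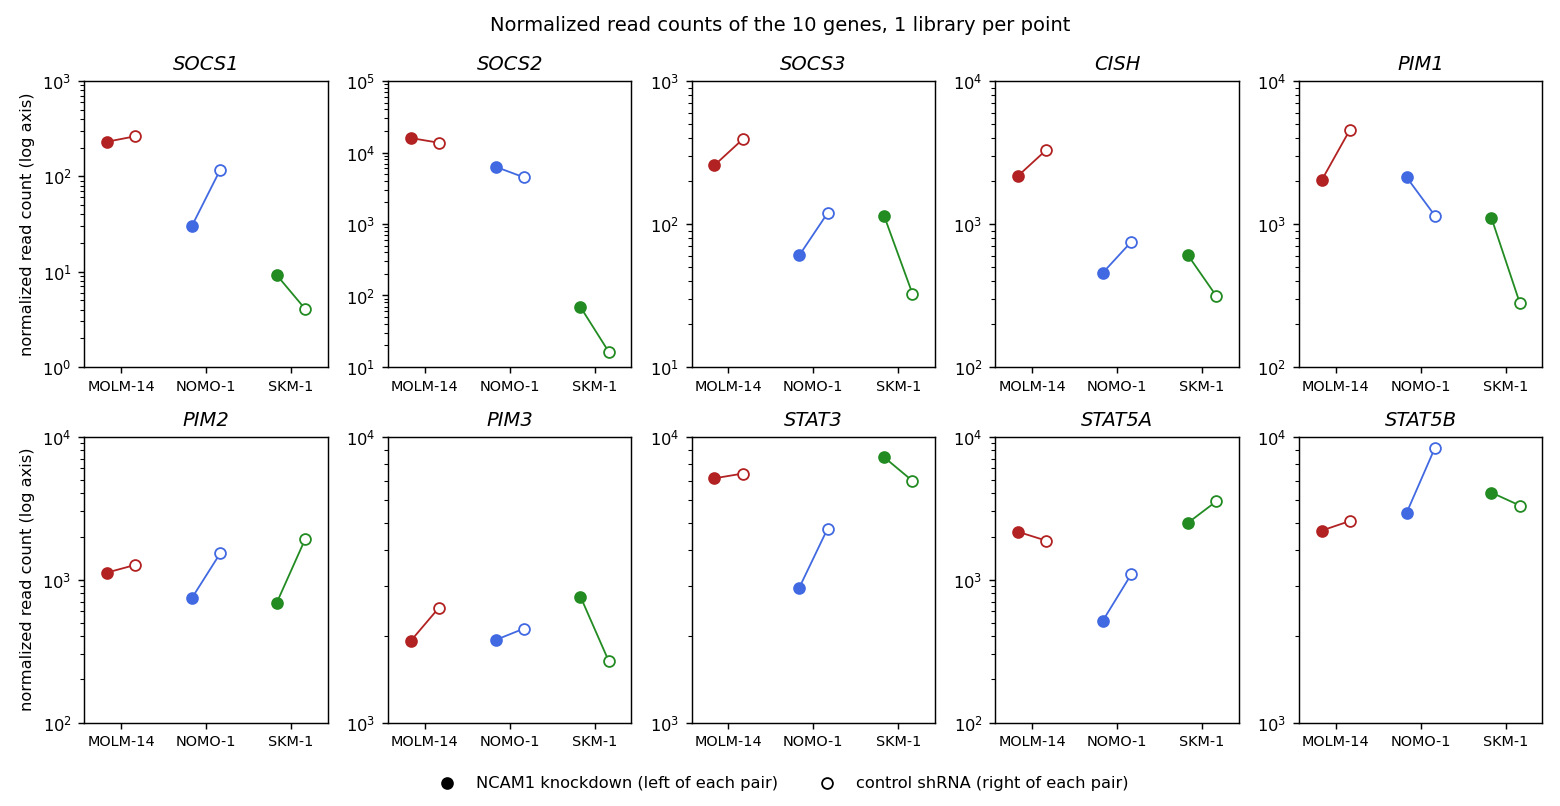
Normalized read counts of the 10 genes in each of the 6 libraries, on a log axis of its own for each gene, with the NCAM1 knockdown library (filled) left of the control shRNA library (open) of the same line and a line joining the pair. SOCS2 runs from 15970 in the MOLM-14 knockdown library to 16.3 in the SKM-1 control library. The joining lines of SOCS1, SOCS3, CISH, PIM3, STAT3 and STAT5B slope the other way in SKM-1 than in MOLM-14 and NOMO-1. For SOCS1 in SKM-1 the slope rests on 10 and 4 reads. How many of all genes slope in these directions was not counted.

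In all, 3 of the 10 genes were called higher in MOLM-14 and 0 lower, where 6.62% of all tested genes were called higher and 8.64% lower. DESeq2 called 5 of the 10 higher, and 8.63% of all genes. The 2 MOLM-14 libraries lay above the 4 others for 4 of the 10 genes, SOCS1, SOCS2, SOCS3 and CISH, and for 18.5% of all tested genes. They lay below for 1 gene, STAT5B, and for 19.1% of all. The median difference of the 10 genes was 1.07 on the log2 scale, beside -0.01 over all tested genes. Between NOMO-1 and SKM-1, 1 gene was called higher in NOMO-1 (SOCS2) and 1 lower (STAT5A), where 7.78% of all tested genes were called higher and 5.93% lower. The MOLM-14 calls of the whole table numbered 2987, and without the knockdown library of MOLM-14 only 423, without its control library 554, without the knockdown library of SKM-1 4729 and without its control library 5505. SOCS2 was still called without any 1 library of MOLM-14 or SKM-1. Without the knockdown library of SKM-1, NOMO-1 minus SKM-1 was 4.11 for SOCS1, 1.75 for SOCS3 and 1.22 for CISH. With all 6 libraries it was 3.08, 0.47 and 0.42. Without the control library of SKM-1 it was -1.36 for STAT3, beside -1.04 with all 6. Each of these fits leaves SKM-1 with 1 library, so the values are given as sizes only. For 7 of the 10 genes the ratio of knockdown over control, described next, lay above 1 in 1 line and below 1 in another, each beyond counting error, as it did for 30.7% of all tested genes. Counting intervals narrow as reads increase, so well-counted genes meet this rule more easily. The share was not taken over genes of like read number, so it is no matched background.

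**Figure D2:**
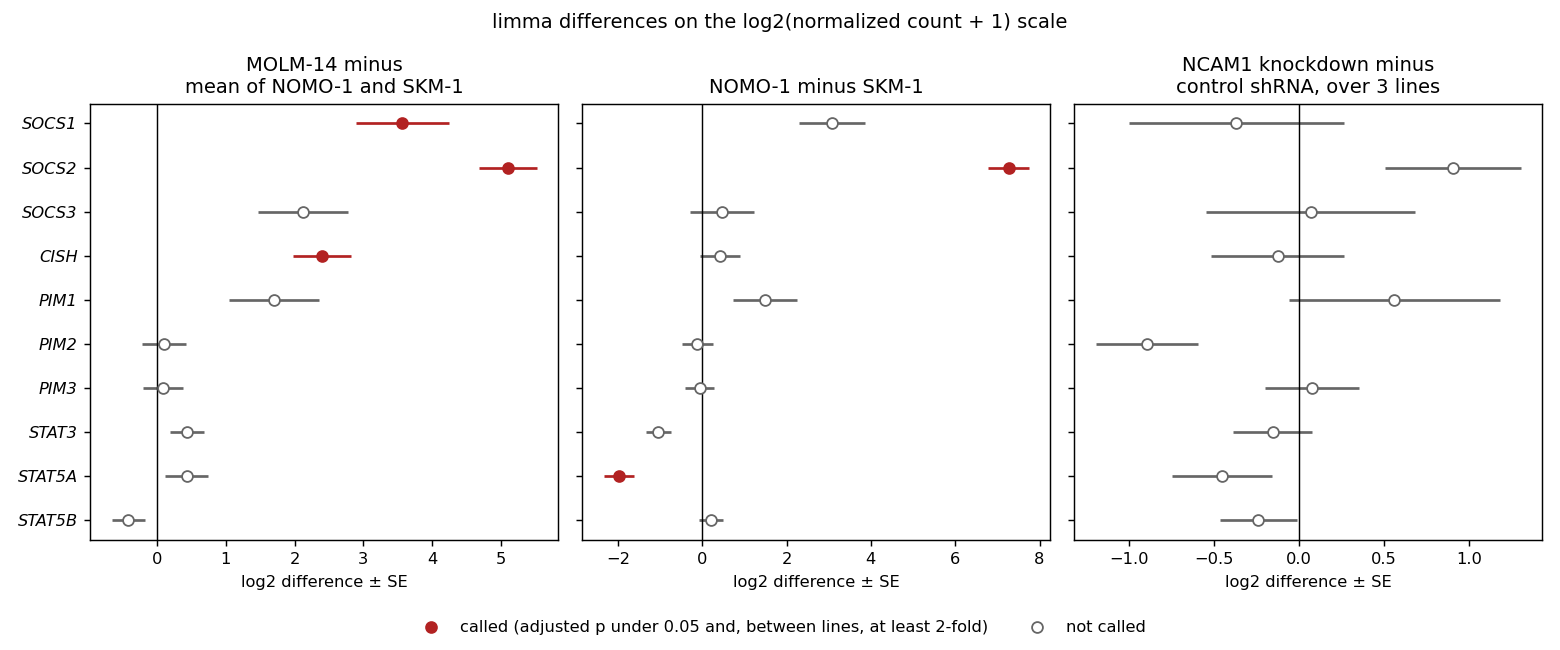
limma differences of the 10 genes on the log2(normalized count + 1) scale with bars of 1 SE, for MOLM-14 minus the mean of NOMO-1 and SKM-1, NOMO-1 minus SKM-1, and NCAM1 knockdown minus control shRNA over the 3 lines. Filled points were called: SOCS1, SOCS2 and CISH in the first panel, SOCS2 and STAT5A in the second, and no gene in the third.

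Between knockdown and control over the 3 lines, no member of the group was called. Neither was any other gene: limma called 0 of 19575, that is 0% of tested genes, with 877 at an unadjusted p under 0.05. edgeR called 0 as well (863 unadjusted), and DESeq2 called 43, 11 higher and 32 lower and none of the 10 genes. NCAM1 itself differed by -3.50 (log2, SE 1.124) with a limma adjusted p of 0.779, so an adjusted p above the threshold here does not show that a gene did not differ.

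PIM2 and SOCS2 were the members whose knockdown library lay on the same side in all 3 lines beyond counting error. The share of all tested genes that did so was not counted, so this only describes these genes. The knockdown over control ratio of PIM2 was 0.883 in MOLM-14 (95% exact binomial interval 0.812 to 0.961), 0.486 in NOMO-1 (0.446 to 0.529) and, for SKM-1, 0.361 (0.331 to 0.393). The mean log2 difference was -0.90 (SE 0.30, unadjusted p = 0.0331, limma adjusted p = 0.779). The ratio of SOCS2 was above 1 in all 3 lines, at 1.17 in MOLM-14 (1.14 to 1.19), 1.40 in NOMO-1 (1.35 to 1.46) and, for SKM-1, 4.24 (2.45 to 7.79). Its mean log2 difference was 0.91 (SE 0.40, unadjusted p = 0.0741, limma adjusted p = 0.779). These intervals cover counting error only, since a line has 1 library per condition, and in a bulk culture fewer cells of a kind and less RNA per cell cannot be told apart.

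SOCS3 and CISH had the same pattern of ratios. The ratio of SOCS3 was 0.658 in MOLM-14 (0.557 to 0.777) and 0.506 in NOMO-1 (0.370 to 0.687), but 3.50 in SKM-1 (2.36 to 5.34). That of CISH was 0.658 (0.622 to 0.696) in MOLM-14 and 0.609 (0.543 to 0.682) in NOMO-1, but 1.93 in SKM-1 (1.68 to 2.21). Both genes were thus lower in the knockdown library of MOLM-14 and NOMO-1 and higher in that of SKM-1. PIM3 was 0.765 (0.719 to 0.813) in MOLM-14 and 0.912 (0.860 to 0.968) in NOMO-1, and 1.68 (1.58 to 1.79) in SKM-1.

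PIM1 had the widest spread of ratios between lines among the 10 genes. Its ratio was 0.443 in MOLM-14 (0.419 to 0.467), 1.86 in NOMO-1 (1.73 to 1.99) and, for SKM-1, 3.93 (3.44 to 4.49). MOLM-14 was therefore the line that stood against the other two for PIM1. SOCS1 had a ratio of 0.877 in MOLM-14, with an interval that held 1 (0.726 to 1.06), and of 0.257 in NOMO-1 (0.170 to 0.380). In SKM-1 the SOCS1 ratio of 2.26 came from 10 and 4 reads, and its interval of 0.652 to 9.87 held 1.

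The 3 STAT genes had their lowest ratios in NOMO-1. STAT3 was 0.962 in MOLM-14 (0.930 to 0.996), 0.622 in NOMO-1 (0.595 to 0.650) and, for SKM-1, 1.21 (1.17 to 1.25). STAT5A was 1.15 in MOLM-14 (1.08 to 1.23), 0.475 in NOMO-1 (0.428 to 0.525) and, for SKM-1, 0.708 (0.673 to 0.745). STAT5B was 0.926 in MOLM-14 (0.888 to 0.965), 0.593 in NOMO-1 (0.574 to 0.612) and, for SKM-1, 1.11 (1.07 to 1.15). STAT3 and STAT5B thus shared the directions of SOCS3, CISH and PIM3 in each line, by smaller margins in MOLM-14 and SKM-1. The share of all tested genes with these directions was not counted, so the pattern is not read as particular to these genes. STAT5A and STAT5B are neighbouring genes with near-identical stretches, and 371 of their 100-base transcript windows are shared (6.14% of those of STAT5A and 5.67% of those of STAT5B), so reads from these stretches could have been split or dropped.

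**Figure D3:**
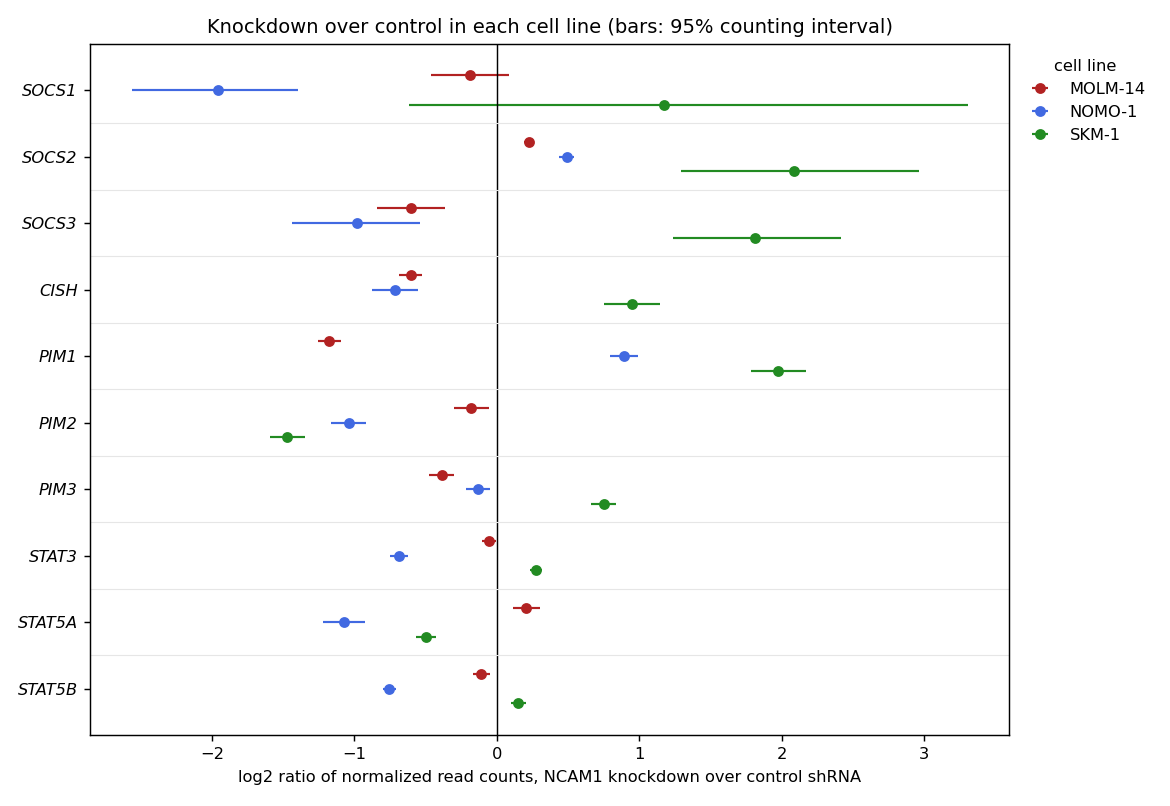
log2 ratio of the normalized read count of the NCAM1 knockdown library over that of the control shRNA library of the same line for the 10 genes, with 95% exact binomial intervals that cover counting error only. PIM2 lies below 0 and SOCS2 above 0 in all 3 lines. SOCS3, CISH, PIM3, STAT3 and STAT5B lie above 0 in SKM-1 and below it in MOLM-14 and NOMO-1. The points of SOCS1 lie likewise, with intervals that hold 0 in MOLM-14 and SKM-1. How many of all genes lie in these directions was not counted.

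Past 2-fold and at 100 or more normalized reads in 1 library, 0 of 10 genes were higher and 1 lower in MOLM-14 (PIM1), where 0.753% of genes were higher and 1.4% lower. In NOMO-1, 0 were higher and 3 lower (SOCS1, PIM2 and STAT5A), where 2.06% of genes were higher and 5.66% lower. In SKM-1 the level was reached by 8 of the 10 genes, of which 2 were higher (SOCS3 and PIM1) and 1 lower (PIM2), where 13.9% of genes were higher and 14.9% lower. The median log2 ratio of the 10 genes was -0.18 in MOLM-14, -0.74 in NOMO-1 and, for SKM-1, 0.85, beside 0.00, 0.00 and -0.01 over all tested genes.

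Whether the change in 1 line differed from the mean change of the other 2 was tested with a further term in limma, which leaves 1 residual degree of freedom. For SKM-1 the difference in change was 2.56 for SOCS3 (log2, SE 0.47, limma adjusted p = 0.0778), 1.66 for SOCS2 (SE 0.27, adjusted p = 0.0714), 1.60 for CISH (SE 0.27, adjusted p = 0.0744) and 1.01 for PIM3 (SE 0.25, adjusted p = 0.112). None passed the threshold, nor did any gene of the table (0% called, with 5389 at an unadjusted p under 0.05). On the recovered reads edgeR called SOCS3, SOCS2 and CISH (adjusted p = 0.0202, 0.0290 and 0.0189), where it called 7.52% of all genes as higher. DESeq2 called CISH, SOCS2 and PIM1 (adjusted p = 0.00460, 0.00921 and 0.0340), where it called 6.41% as higher. Within SKM-1 the knockdown library also had lower NCAM1 (ratio 0.00806) and MPO (0.00846) and higher ITGAM (11.9) and LYZ (2.94). Other myeloid markers went both ways, with CD33 (0.563), FCGR1A (0.624) and CEBPA (0.734) lower and SPI1 (1.60) and CSF1R (1.51) higher. The part of these genes was not tested. For MOLM-14 the difference of PIM1 was -2.61 (SE 0.72, unadjusted p = 0.0144), and no gene was called by limma (0%, 210 at an unadjusted p under 0.05) or edgeR, against 6 by DESeq2. For NOMO-1 no gene was called by any of the 3 tools (0%, 131 unadjusted in limma).

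Genes upstream in the pathway were described from lists. FLT3 had 28123 in the knockdown and 39095 in the control library of MOLM-14, 1348 and 2787 in NOMO-1, and 293.8 and 2580 in SKM-1. It was higher in MOLM-14 by 4.67 (log2, SE 0.57, limma adjusted p = 0.0128), with no overlap between MOLM-14 and the other lines, and the count does not tell the duplicated allele from the normal one. Its knockdown over control ratio was 0.719 in MOLM-14, 0.484 in NOMO-1 and, for SKM-1, 0.114 (0.101 to 0.128), so in every line the knockdown library was the lower. The mean log2 difference was -1.55 (SE 0.54, limma adjusted p = 0.779).

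Of 25 cytokine and growth factor receptors, 21 were tested, and 2 were called higher in MOLM-14 and 3 lower, beside 6.62% and 8.64% of all tested genes. EPOR, the erythropoietin receptor, was among the higher (1.43, SE 0.29, limma adjusted p = 0.0375). PRLR, the prolactin receptor, was among the lower (-2.90, SE 0.64, limma adjusted p = 0.0456), with 3.13 in the knockdown and 6.69 in the control library of MOLM-14, 858.5 and 1291 in NOMO-1, and 1.84 and 0 in SKM-1. PRLR passed the filter through NOMO-1 alone, and MOLM-14 did not lie below SKM-1. Its call thus describes the high level in NOMO-1, and no test of MOLM-14 is read from it. The growth hormone receptor GHR had 21.1 in the knockdown and 454.2 in the control library of SKM-1 and 26.5 or less in the other lines. LEPR, the leptin receptor, had the smallest p of the list between knockdown and control (1.11, SE 0.37, unadjusted p = 0.0304, limma adjusted p = 0.779).

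Of 14 ligands 5 were tested, and OSM (2.22, SE 0.51, limma adjusted p = 0.0491) and TSLP (3.07, SE 0.50, limma adjusted p = 0.0238) were called higher in MOLM-14. Over all tested genes 6.62% were called higher. TSLP, a cytokine that activates STAT5, had 136.8 in the knockdown and 109.3 in the control library of MOLM-14, 115.9 and 204.0 in NOMO-1, and 0.918 and 0 in SKM-1. MOLM-14 and NOMO-1 overlapped for TSLP, and SKM-1 alone stood apart. Oncostatin M, encoded by OSM, signals through gp130 to STAT3. It had 221.3 in the knockdown and 331.2 in the control library of MOLM-14, 63.0 and 137.0 in NOMO-1, and 48.7 and 25.4 in SKM-1, so its knockdown library was the lower in MOLM-14 and NOMO-1 and the higher in SKM-1. KITLG, the ligand of KIT, was at 2.04 (SE 0.62, limma adjusted p = 0.0912). IL11 and LIF, also ligands of gp130 receptors, had 57.6 or less and 120.0 or less in every library. Of the 9 JAK and other kinases, all tested, 0 were called higher or lower in MOLM-14, beside 6.62% and 8.64% of all tested genes. JAK2 had 1256 and 1265 in MOLM-14 and 643.2 to 1082 in the other lines (0.63, SE 0.20, limma adjusted p = 0.0972). JAK3 differed by 2.40 (SE 0.75, limma adjusted p = 0.0954), with 47.7 in the knockdown and 416.6 in the control library of SKM-1. TYK2 was at 0.57 (SE 0.18, limma adjusted p = 0.0999), and FES, a kinase of myeloid cells, at 0.38 (SE 0.35, limma adjusted p = 0.490).

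Of 4 other STAT genes, all tested, 2 were called higher in MOLM-14, beside 6.62% of all tested genes. They were STAT2 (1.30, SE 0.23, limma adjusted p = 0.0269) and STAT4. STAT4 was low throughout, with 90.8 in the knockdown and 46.8 in the control library of MOLM-14 and 10.2 or less in the other lines. It passed the filter through MOLM-14 alone, so its difference (4.09, SE 0.79) is a description and no test is read from it. STAT6 was at 0.96 (SE 0.24, limma adjusted p = 0.0586). Of 8 adaptors of FLT3, 1 was called higher, the scaffold GAB2 (1.84, SE 0.31, limma adjusted p = 0.0254), beside 6.62% of all tested genes. PTPN11, the phosphatase SHP2, passed the p threshold without a 2-fold difference (0.87, SE 0.16, limma adjusted p = 0.0317). INPP5D, the lipid phosphatase SHIP1, had the smallest p of this list between knockdown and control (-0.86, SE 0.22, unadjusted p = 0.0111, limma adjusted p = 0.779).

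Of 14 further inhibitors of the pathway 1 was called higher in MOLM-14, beside 6.62% of all tested genes. It was PTPN6 (1.39, SE 0.17, limma adjusted p = 0.0124), the phosphatase SHP1 that acts on JAK kinases. It had 10494 in the knockdown and 16396 in the control library of MOLM-14, 3822 and 4776 in NOMO-1, and 4902 and 7067 in SKM-1, so the knockdown library was the lower in each line. CBLB, a ubiquitin ligase, was at 1.31 (SE 0.33, limma adjusted p = 0.0605), and SH2B3, the adaptor LNK, at 1.16 (SE 0.48, limma adjusted p = 0.165). SOCS4 was at 0.06 (SE 0.18, limma adjusted p = 0.847) and had 2082 to 3166 in the 6 libraries. The 4 genes of the SOCS box ubiquitin ligase, among them the scaffold CUL5 (0.07, SE 0.26), gave 0 calls in either direction. Over all tested genes 6.62% were called higher and 8.64% lower. TCEB2, the older symbol of elongin B, was at -0.46 (SE 0.19, limma adjusted p = 0.164) and RNF7 at -0.85 (SE 0.21, limma adjusted p = 0.0586).

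Of 19 other genes described as STAT5 or STAT3 targets 18 were tested, and 6 were called higher in MOLM-14 and 2 lower, beside 6.62% and 8.64% of all tested genes. CCND2, cyclin D2, had 6106 in the knockdown and 5778 in the control library of MOLM-14, 33.8 and 51.0 in NOMO-1, and 96.4 and 565.9 in SKM-1 (5.89, SE 0.58, limma adjusted p = 0.00818). The early response gene EGR1 (2.98, SE 0.66, limma adjusted p = 0.0465), the cell cycle inhibitor CDKN1A (2.84, SE 0.55, limma adjusted p = 0.0351), VEGFA (2.28, SE 0.16, limma adjusted p = 0.00435) and MYC (1.26, SE 0.28, limma adjusted p = 0.0467) were also called. The remaining gene called higher was CCND1, named after its values were seen. It had 332.0 in the knockdown and 521.9 in the control library of MOLM-14, 992.6 and 1667 in NOMO-1, and 7.35 and 4.06 in SKM-1. NOMO-1 and not MOLM-14 was thus its highest line. The naming rule took neither of the 2 called lower. Other targets were lowest in MOLM-14, also named after their values were seen. BCL2L1 had 620.1 and 659.1 in MOLM-14 and 973.8 to 2959 in the other lines. BCL6 had 204.6 and 368.0 against 470.4 to 3054, and CEBPD 788.2 and 1050 against 1577 to 3674. The list had a median of 1.31, beside -0.01 over all tested genes. VEGFA, a growth factor for blood vessels, had its lower value in each knockdown library, with 10202 and 19229 in MOLM-14, 2962 and 5324 in NOMO-1, and 1553 and 2824 in SKM-1 (-0.87, SE 0.15, unadjusted p = 0.00249, limma adjusted p = 0.779). BCL2, the survival factor, had 7350 in the knockdown and 11887 in the control library of MOLM-14, 4256 and 10367 in NOMO-1, and 433.4 and 10320 in SKM-1 (-2.18, SE 0.79, limma adjusted p = 0.779).

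Past 2-fold and at 100 or more normalized reads, 0 of 18 of these targets were higher in the knockdown library of MOLM-14 and 1 was lower, beside 0.753% and 1.4% of all genes. In NOMO-1 0 of 16 were higher and 2 lower, beside 2.06% and 5.66%. In SKM-1 9 of 17 were higher and 3 lower, beside 13.9% and 14.9%. The 9 were MCL1, CCND3, BCL6, CDKN1A, EGR1, FOS, JUNB, BCL3 and CEBPB, and the 3 were BCL2, MYC and CCND2, named after their values were seen. Of 8 PIM substrates and partners 1 was called higher in MOLM-14, beside 6.62% of all tested genes. It was the cell cycle inhibitor CDKN1B (1.78, SE 0.27, limma adjusted p = 0.0206). CDC25A was at -0.93 (SE 0.18, limma adjusted p = 0.0364), short of a 2-fold difference, and CXCR4 at 1.42 (SE 0.82, limma adjusted p = 0.291). HSP90AA1, a chaperone that stabilises PIM1, was at -0.14 (SE 0.23, limma adjusted p = 0.716), and AKT1S1 at -0.02 (SE 0.22, limma adjusted p = 0.966). The remaining adaptors with the smallest p between knockdown and control, SOS1 and GRB2, were at -0.34 (SE 0.18) and -0.22 (SE 0.16), both with a limma adjusted p of 0.779. No list held a gene called between knockdown and control.

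**Figure D4:**
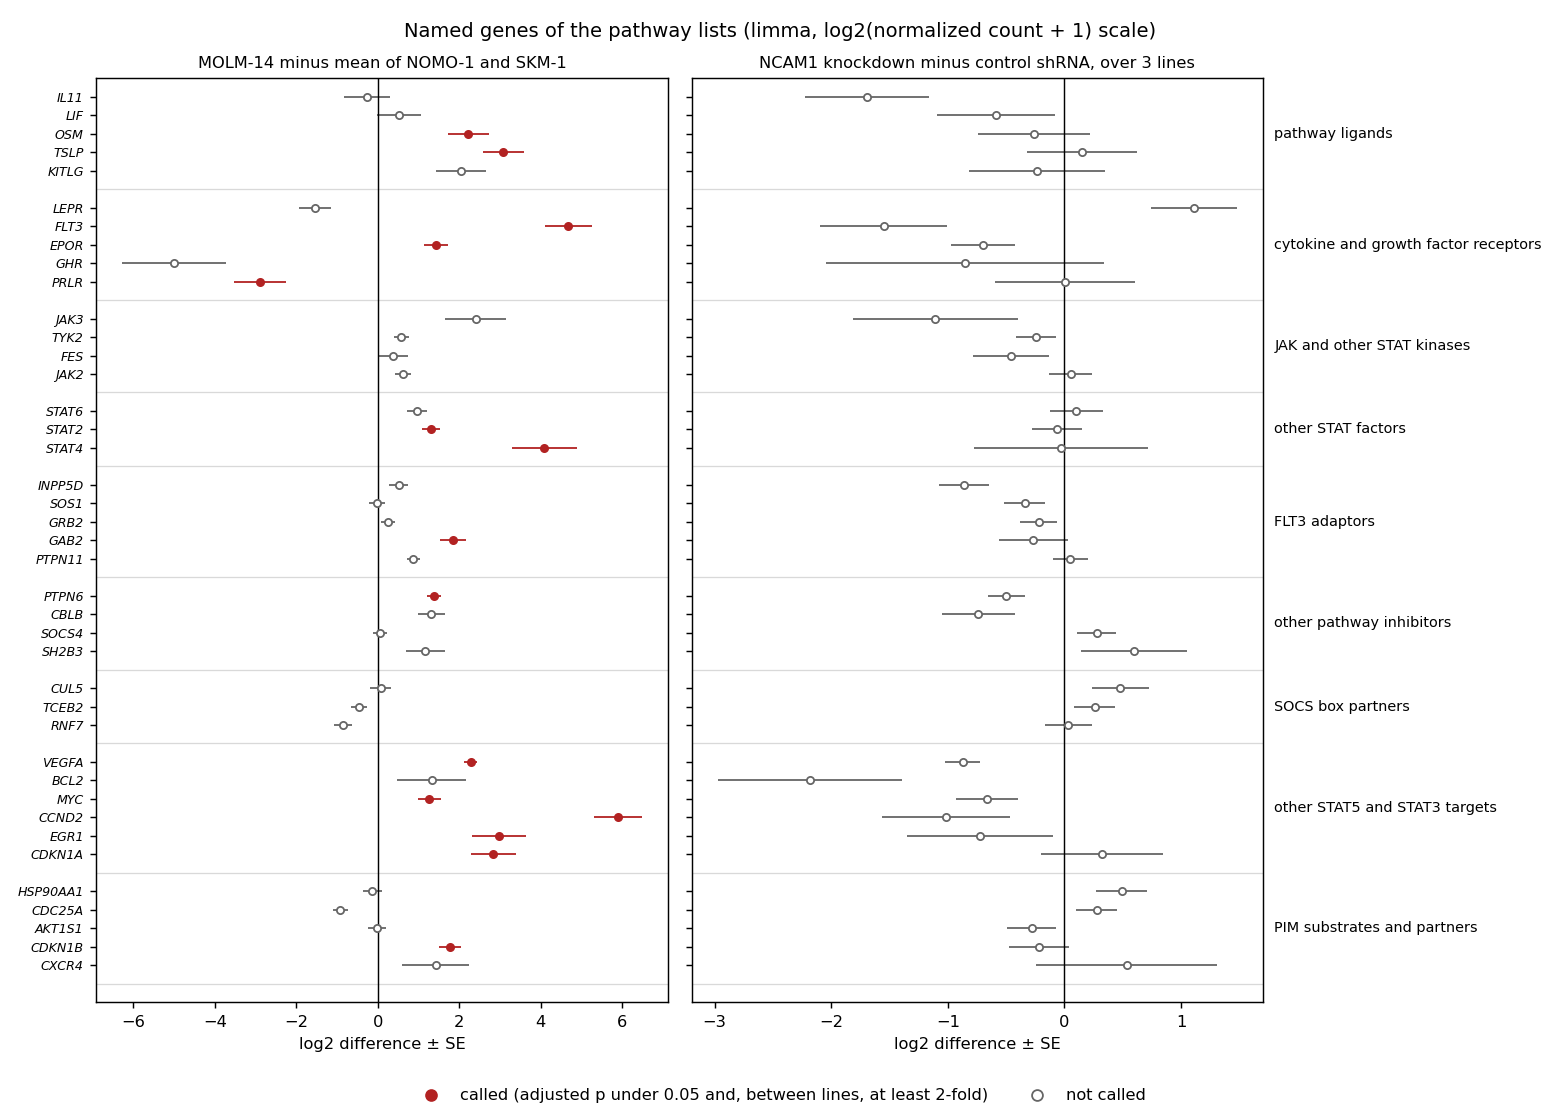
limma differences with bars of 1 SE, on the log2(normalized count + 1) scale, for the named genes of 9 pathway lists, in MOLM-14 minus the mean of NOMO-1 and SKM-1 (left) and in NCAM1 knockdown minus control shRNA over the 3 lines (right). Filled points were called, STAT4 and PRLR among them although each passed the filter through 1 line alone; CCND2 (5.89) and FLT3 (4.67) lie farthest right in the left panel, and the right panel holds no filled point.

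The genes whose levels ran most like each SOCS or PIM gene were found by the root mean square (RMS) difference of centred log2 levels over the 6 libraries, among 14884 genes with a mean of 50 or more. These are descriptions of 3 lines measured in pairs, so genes that differ between lines are near each other for that alone. Nearest to SOCS3 was CISH, with an RMS difference of 0.284, and SOCS3 was in turn next to CISH after PITPNM2 (0.222). Next to SOCS3 stood CPNE5 (0.340) and HNRNPA1P49 (0.366), a pseudogene whose reads may belong to near-identical copies, which was also among the nearest to CISH (0.302). Nearest to SOCS2 was its antisense neighbour SOCS2-AS1 (0.407), followed by the kinase gene YES1 (0.519) and AC016757.3 (0.643).

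SOCS2-AS1 had 1760 in the knockdown and 1587 in the control library of MOLM-14, 672.4 and 641.4 in NOMO-1, and 6.43 and 3.05 in SKM-1. SOCS2-AS1 and SOCS2 share 277 bases of exon on opposite strands, 4.09% of the exon length of SOCS2. CISH shares 218 bases, 4.26% of its exon length, with MAPKAPK3 on the opposite strand. The sources used here do not name the strand setting of the counting, so reads from these shared bases cannot be told apart. Nearest to SOCS1 were HRC (0.319), NUAK1 (0.397) and SERINC2 (0.467). For PIM1 they were FOS (0.393), itself an early response gene, ELAVL4 (0.417) and SLC7A11 (0.420). For PIM2 they were CEP152 (0.060), BTD (0.095) and RAB44 (0.097), and for PIM3 PAFAH1B2 (0.058), a clone-named gene (0.075) and R3HDM4 (0.077). PIM2 and PIM3 varied little over the libraries, with a standard deviation of centred log2 levels of 0.53 and 0.25 against 3.87 for SOCS2, so small RMS differences are reached more easily for them.

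Levels per kilobase of annotated exon (GENCODE, GRCh38) allow only a rough comparison between genes. The length joins the exons of all annotated transcripts of a gene, on another build than that of the reads. By this measure SOCS1 and SOCS3 were low in all 6 libraries, at 2.26 to 146.5 and at 11.9 to 142.8 normalized reads. PIM3 ranged over 665.5 to 1119 and STAT5B over 727.4 to 1414, so both were well expressed in each line. The highest of the 10 genes per kilobase was SOCS2 in both MOLM-14 libraries, and in SKM-1 PIM3 in the knockdown (1119) and STAT5B in the control library (890.3). In NOMO-1 it was SOCS2 in the knockdown library (932.9) and STAT5B in the control library (1414). PIM1 had 677.1 per kilobase in the knockdown and 1530 in the control library of MOLM-14.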

How the data were processed

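Libraries were made with the Illumina TruSeq RNA v2 kit and sequenced as paired reads, per the labels' protocols and the series text. In the main table the authors deposited a normalized signal, that is reads per gene over a size factor of the library. A further table holds log2 values, which the authors deposited after a transformation that the sources used here do not name. HTSeq 0.6.1p1, STAR, DESeq2 1.12.4, bcl2fastq 1.8.4 and the build hg19 are listed in the submitters' processing notes, with no settings.

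Dividing by the smallest step of a library gave whole reads for 100% of values (tolerance 0.001), 41916991 to 47688779 per library, which sets the counting intervals. Of the genes, 19575 with a mean of 10 or more were tested in limma 3.58.1 under R 4.3.3 (lmFit, then eBayes with a trend; two-sided), Benjamini-Hochberg adjusted. The values were log2(normalized count + 1) and the block was the line, which pairs the 2 libraries. Across genes, the deviations of paired libraries correlated at 0.850 (MOLM-14), 0.863 (NOMO-1) and 0.710 (SKM-1). Residual degrees of freedom were 2, with 2.81 from the prior. Ratios within a line have exact conditional binomial 95% intervals and no test across genes. Alternatives were edgeR 4.0.16, DESeq2 1.42.0, other pseudocounts, filters and scalings, and leaving out libraries. The limma and edgeR fits were tested on simulated data in which a changed gene had the same knockdown change in every line. Changes that differ between lines were not simulated, and DESeq2 was not run on them.

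The 10 genes and the pathway lists were chosen with earlier results of these data known. Of each list, up to 3 genes by smallest p between knockdown and control and up to 3 by the largest MOLM-14 difference are named, and for each SOCS and PIM gene the 3 nearest genes; a gene that this rule also takes is not reported here. Promoter windows came from RefSeq (GRCh38.p14) and exons from GENCODE (GRCh38), another build than that of the reads.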

Additional observations from a re-analysis of the deposited data

Results flagged for a closer look

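For 7 of the 10 genes the knockdown library was higher than the control library in at least 1 line and lower in another, each beyond its counting interval, as for 30.7% of all tested genes. Well-counted genes meet this rule more easily, and the share was not taken over genes of like read number. The difference between lines was not tested by that comparison, since a line has 1 library per condition, and the tests between lines are in the report. The gap between the highest and the lowest line, in log2 ratio of knockdown over control, was 3.15 for PIM1 (SKM-1 highest, MOLM-14 lowest) and 2.79 for SOCS3 (SKM-1 highest, NOMO-1 lowest). It was 1.66 for CISH and 1.14 for PIM3, where SKM-1 was again the highest line. For the STAT genes the gap was 1.28 for STAT5A (MOLM-14 highest), 0.96 for STAT3 and 0.91 for STAT5B (SKM-1 highest), and NOMO-1 was the lowest line for all 3.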

How the results depend on the processing

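Between knockdown and control limma and edgeR called 0 genes under each setting run, and DESeq2 called 43. Members called were 0 throughout, also without the replicate block (0 genes) and with 1 line left out (0 to 0 genes). With 1 line left out, mean log2 differences changed sign within -1.057 to 0.409 for SOCS1, -0.787 to 0.587 for SOCS3, -0.659 to 0.170 for CISH, -0.142 to 1.430 for PIM1, -0.260 to 0.309 for PIM3, -0.371 to 0.110 for STAT3 and -0.433 to 0.019 for STAT5B. For MOLM-14 against the other lines, with 1 library left out, 0 to 5505 genes and 0 to 5 members were called, and differences changed sign for PIM2 (-0.433 to 0.643), PIM3 (-0.264 to 0.431) and STAT5A (-0.063 to 0.929). Members called were 5 with DESeq2 and 1 with no filter, and PIM3 was -0.016 with total-count scaling. For NOMO-1 against SKM-1, with 1 library left out, 0 to 5038 genes and 0 to 4 members were called, and differences changed sign for SOCS3 (-0.816 to 1.748), CISH (-0.383 to 1.219), PIM2 (-0.543 to 0.318), PIM3 (-0.567 to 0.442) and STAT5B (-0.172 to 0.602). Members called were 4 with DESeq2, 1 without a variance trend and 1 with no filter, and PIM3 was 0.009 with quantile normalization and 0.001 with total-count scaling. For the change in SKM-1 against the other lines, genes called were 2770 with edgeR, 2318 with DESeq2, 2061 with the authors' transformed values, 1669 with a filter of 50, 1322 with robust eBayes and 820 with a pseudocount of 8. Members called were 3 with each of these except the pseudocount of 8, with 0. For the change in MOLM-14, DESeq2 called 6 genes. Genes past 2-fold within MOLM-14 numbered 429 with a level minimum of 50, against 272. The cause of these differences was not tested. No library could be left out for the changes between lines, since no residual degree of freedom remains. Depth limits SOCS1 and SOCS2 in SKM-1, with 4 to 75 reads.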
